A study of Arabidopsis thaliana with 8 samples.

Results

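The genes described here are those whose transcript signal was lower on every array of the Arabidopsis thaliana tic40 mutant than on every wild-type (WT) array. They were chosen on the measured values of all 8 arrays: a probe annotated with exactly 1 gene, a deposited value above 0 on every array, a mean log2 level under percentile 90 of all probes, the highest tic40 value below the lowest WT value, and a mean log2 level at least 0.5 lower in tic40. Of 692 single-gene probes, 549 met the conditions on level and 48 met all of them. The rule leaves out 11 genes by name, 6 of which were among the 48, so 42 genes, each with its own probe, make up the group. Because the difference between the genotypes chose these genes, that difference is given below as a description, without a test.

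RNA of tic40 plants and of WT plants, both in ecotype Columbia 0, was hybridised to 1-colour arrays with 3439 probes, 4 samples per genotype, numbered 1 to 4 in each. The labels give no allele, tissue, age or growth condition, so no tissue could be checked against markers, and nothing states whether each sample is a plant or culture of its own. Any p-value here rests on the scatter among these samples, possibly technical. The question of the comparison is which transcripts differ when protein import across the inner chloroplast envelope is impaired.

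TIC40 is a membrane-anchored protein of the inner envelope that works with stromal chaperones as precursor proteins emerge from the import channel. Plants without it are pale and grow slowly. Most chloroplast proteins are encoded in the nucleus and enter the organelle by this route, and nuclear transcript levels are known to respond to the state of the plastid.

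Levels below are normalised intensities on a relative scale, after quantile normalization, which gives all arrays the same distribution of values. Differences are mean log2 levels of tic40 minus WT, and a percentage is the same difference turned back into a ratio of tic40 to WT. The deposited medians were 0.568 to 0.604 on the tic40 arrays, against 0.354 and 0.361 for WT samples 1 and 2 and 0.559 and 0.564 for WT samples 3 and 4. Across all probes, WT samples 1 and 2 correlated with WT samples 3 and 4 at 0.707 to 0.722, while the tic40 arrays correlated with each other at 0.934 to 0.975. Between tic40 and WT samples 1 and 2 the correlations were 0.874 to 0.907, and between tic40 and WT samples 3 and 4 they were 0.739 to 0.800. WT samples 1 and 2 thus had the low medians, while WT samples 3 and 4 were the arrays least like the others, and results are also given for samples 1 and 2 and for samples 3 and 4 alone.

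Among the 549 single-gene probes that could enter, all tic40 values lay below all WT values with means at least 0.5 apart for 8.74%, and all tic40 values lay above all WT values with means at least 0.5 apart for 5.46%, which is 30 genes. Among the 2751 probes of any annotation that met the conditions on level, these shares were 9.89% and 6.18%. In the 42 genes the log2 difference ran from -1.50 to -0.51 with a median of -0.83, so that tic40 levels were between 35.3% and 70.5% of WT levels. The median difference of the 549 was -0.02. The difference was at least 1 on the log2 scale in 13 genes, 0.75 to 1 in 12 and under 0.75 in 17. With whole-plant or tissue RNA, fewer cells of a type and less RNA per cell cannot be told apart.

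**Figure D1:**
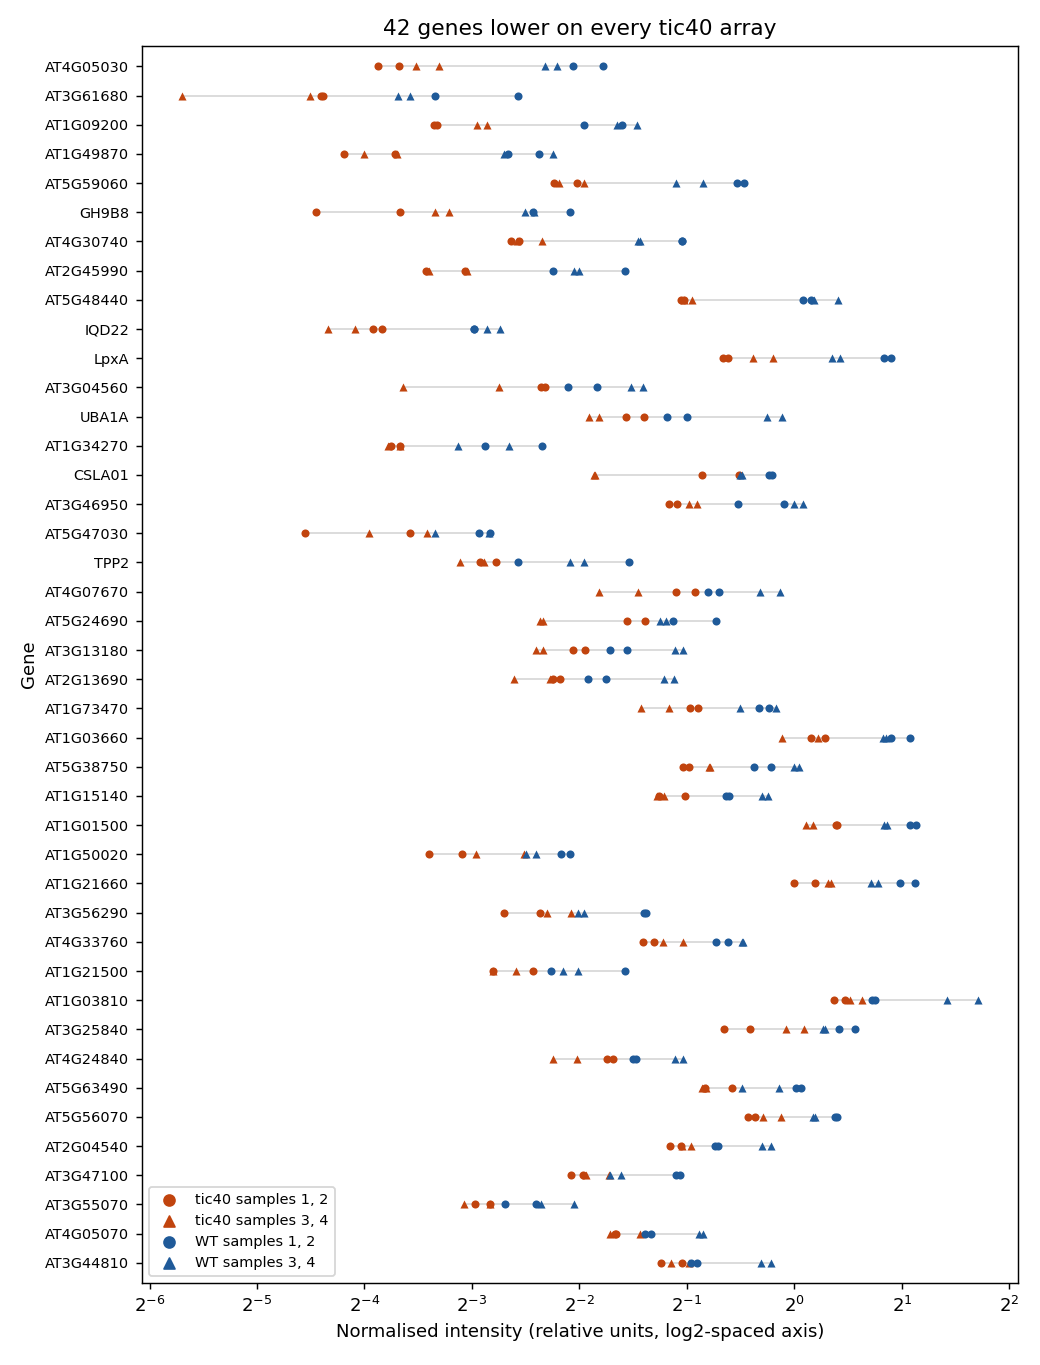
Normalised intensity (relative units, log2-spaced axis) of the 42 genes on each array, ordered by the size of the difference, with tic40 in red and WT in blue, circles for samples 1 and 2 and triangles for samples 3 and 4. Every red point lies left of every blue point in its row, as the rule requires. The gap follows the order of the rows in part: the highest tic40 value is at most 68.3% of the lowest WT value in the top 11 rows, and more in all others. The extremes are 48.8% in AT5G48440 and 99.6% in CSLA01, which are not the first and last rows.

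The gene table used for names gives 6 of the 42 a symbol besides the locus code, a share of 14.3%, against 13.3% of the 549. It gives AT1G09200 the name histone H3.1 as a synonym, and it does not list AT1G03660. Its names are too few for a count of functional classes: a word for an enzyme occurs for 3 of the 42 and for 13 of the 549. Roles given below for loci with only a code are background knowledge, not annotation of the array or of the gene table, and they are stated for 16 genes in all. The other 26 are given by code.

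Of the genes for chromatin, RNA and translation, AT1G09200, a gene for the replication-type histone H3.1, had the largest difference. It stood at 0.0995, 0.0981, 0.137 and 0.129 in tic40 samples 1 to 4, against 0.258, 0.329, 0.362 and 0.318 in WT samples 1 to 4. The highest tic40 value was at 53.4% of the lowest WT value, and the log2 difference was -1.45. Cross-hybridisation with the other, nearly identical H3.1 transcripts is possible on this probe. Of 5 H3.1 genes, 2 had a single-gene probe, and the other of these was listed at 0 on all 8 arrays.

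UBA1A, an RNA-binding protein that associates with the oligouridylate-binding protein UBP1, was at 0.337, 0.379, 0.284 and 0.266 in tic40, against 0.499, 0.440, 0.923 and 0.840 in WT. WT samples 3 and 4 were far above WT samples 1 and 2, and these lay only a little above the tic40 values. Its log2 difference was -1.04 over all samples, -0.39 in samples 1 and 2 and -1.68 in samples 3 and 4.

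AT3G46950, one of the mTERF proteins, which bind nucleic acids in chloroplasts and mitochondria, had 0.446, 0.469, 0.535 and 0.508 in tic40 and 0.695, 0.938, 0.999 and 1.05 in WT. The 4 tic40 values were close together, and WT sample 1 was the lowest WT value. The differences in samples 1 and 2 (-0.82) and in samples 3 and 4 (-0.98) were similar.

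AT3G13180, of the NOL1/NOP2/Sun family of RNA methyltransferases, had 0.240, 0.258, 0.188 and 0.198 in tic40, against 0.340, 0.305, 0.462 and 0.489 in WT. As in UBA1A, WT samples 3 and 4 held the high values, and the differences were -0.37 in samples 1 and 2 and -1.30 in samples 3 and 4. AT4G33760, of the family of aspartyl-, asparaginyl- and lysyl-tRNA synthetases, had 0.377, 0.404, 0.487 and 0.427 in tic40, against 0.653, 0.602, 0.712 and 0.717 in WT. Here both genotypes varied little and the pairs gave nearly the same difference (-0.68 and -0.65).

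AT3G25840, a protein kinase of the PRP4 type that acts in pre-mRNA splicing, was brighter, at 0.750, 0.633, 0.950 and 1.07 in tic40 and 1.33, 1.48, 1.21 and 1.22 in WT. The genotypes were far apart in samples 1 and 2 (-1.03) and close in samples 3 and 4 (-0.27). The 6 genes of this class had differences of -1.45 to -0.65 with a median of -0.87.

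LpxA is the acyltransferase that opens the synthesis of lipid A-type molecules, a bacterial pathway that plants keep in their mitochondria. It was at 0.632, 0.653, 0.871 and 0.764 in tic40, against 1.79, 1.87, 1.35 and 1.27 in WT. All 4 tic40 values lay well below the lowest WT value, and the difference was -1.51 in samples 1 and 2 and -0.68 in samples 3 and 4. Of 10 genes listed for this pathway, LpxA alone had a single-gene probe, so the rest of the pathway is not analysed here.

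AT3G61680, which encodes a lipase of plastids, was the dimmest of the 42, at 0.0472, 0.0477, 0.0192 and 0.0440 in tic40, against 0.0987, 0.168, 0.0775 and 0.0839 in WT. The value of tic40 sample 3 stood far below the other tic40 values, and WT sample 2 was the highest value. The tic40 mean was 0.0395 ± 0.0136 and the WT mean 0.107 ± 0.0415 (SD, n = 4 each). The floor given to probes listed at 0 was 0.0583 and 0.0665 on WT samples 1 and 2, against 0.0147 to 0.0311 on the other arrays. This gene thus lies in the range where signals are dim. As deposited, its log2 difference was -0.38 and the genotypes overlapped, with WT sample 1 at 0.0497 and tic40 sample 1 at 0.0737. AT1G49870, GH9B8, IQD22 and AT5G47030 also overlapped as deposited, and each had at least 1 array under the floor of WT sample 2.

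AT2G04540, the mitochondrial beta-ketoacyl-acyl carrier protein synthase of organellar fatty acid synthesis, had a small difference. It was at 0.447, 0.482, 0.513 and 0.483 in tic40, against 0.610, 0.598, 0.812 and 0.857 in WT. The tic40 values were nearly level, WT samples 1 and 2 lay just above them, and the log2 difference was -0.56.

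The cell wall enzymes were GH9B8 and CSLA01. GH9B8, a glycosyl hydrolase of the family that holds the plant endoglucanases, was at 0.0458, 0.0786, 0.108 and 0.0983 in tic40, against 0.185, 0.235, 0.187 and 0.177 in WT. WT values were even, tic40 sample 1 was the lowest, and the log2 difference was -1.31. Of 24 family 9 genes found by symbol, 4 had a single-gene probe, of which 1, GH9B8, was called lower in limma's fit and 0 were called higher, while 5.36% of all probes tested were called lower. GH9B8 entered through the rule on this same contrast, and it was not called once sample numbers entered the fit as a block (the replicate block). The log2 differences of the other family members were 0.11 for GH9B11 (limma adjusted p = 0.828), -0.47 for GH9B12 (adjusted p = 0.236) and -0.04 for GH9B16 (adjusted p = 0.965). The median of the 4 was -0.25, against -0.06 for all probes tested. GH9B8, chosen by the rule for its low tic40 values, lowers that median, so nothing about the family is read from it.

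CSLA01, a cellulose synthase-like protein of the family that makes mannans, was at 0.552, 0.701, 0.275 and 0.277 in tic40, against 0.868, 0.847, 0.704 and 0.714 in WT. The tic40 samples split, with samples 1 and 2 well above samples 3 and 4. The highest tic40 value reached 99.6% of the lowest WT value, the narrowest gap of the 42 genes, although the difference of the means was -0.91.

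IQD22 belongs to the IQ-domain proteins, which bind calmodulin. It was at 0.0701, 0.0660, 0.0589 and 0.0494 in tic40, against 0.127, 0.127, 0.138 and 0.150 in WT. Both genotypes were even and apart after quantile normalization, with a log2 difference of -1.16 at a low signal. The difference was -0.56 with median centring and -0.21 as deposited, where the genotypes overlapped.

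TPP2, tripeptidyl peptidase II, a large protease that removes tripeptides from the ends of peptides, was at 0.132, 0.146, 0.116 and 0.135 in tic40, against 0.345, 0.168, 0.257 and 0.236 in WT. WT varied more than tic40, with WT sample 2 close to the tic40 values, and the log2 difference was -0.89.

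AT4G24840, a subunit of the COG complex that tethers vesicles at the Golgi apparatus, was at 0.299, 0.310, 0.246 and 0.211 in tic40, against 0.360, 0.353, 0.488 and 0.465 in WT. Its difference lay mainly in samples 3 and 4 (-1.06, against -0.23 in samples 1 and 2). AT5G47030, the delta subunit of the mitochondrial ATP synthase, was at 0.0425, 0.0839, 0.0645 and 0.0932 in tic40, against 0.131, 0.141, 0.139 and 0.0987 in WT. Tic40 sample 4 and WT sample 4 nearly met, at a low signal. The log2 difference of AT5G47030 was -0.89, and -0.0062 as deposited.

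AT1G21660, a DnaJ-domain protein like the auxilins that uncoat clathrin vesicles, was among the brightest, at 0.998, 1.15, 1.24 and 1.26 in tic40 and 1.98, 2.18, 1.64 and 1.71 in WT. The genotypes were well apart, and WT samples 1 and 2 were the highest values. The log2 difference was -0.69.

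Among the genes with no stated role, AT4G05030 had the largest difference of the 42 (-1.50), at 0.0682, 0.0781, 0.101 and 0.0873 in tic40, against 0.290, 0.240, 0.200 and 0.216 in WT. The highest tic40 value was 50.4% of the lowest WT value, and tic40 averaged 35.3% of WT. AT1G49870 was at 0.0761, 0.0548, 0.0768 and 0.0622 in tic40 and 0.193, 0.158, 0.211 and 0.154 in WT, with a log2 difference of -1.41. As deposited, its genotypes overlapped, while those of AT4G05030 did not.

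AT5G59060 was at 0.246, 0.213, 0.219 and 0.257 in tic40, against 0.689, 0.723, 0.467 and 0.556 in WT. Its tic40 values were even and its WT values spread, with a log2 difference of -1.36. AT4G30740 was at 0.169, 0.161, 0.167 and 0.197 in tic40, against 0.485, 0.486, 0.370 and 0.364 in WT. Here too the tic40 values were level, and WT samples 1 and 2 were the highest. AT2G45990 was at 0.0929, 0.120, 0.0949 and 0.121 in tic40, against 0.210, 0.336, 0.249 and 0.241 in WT, where only WT sample 2 stood out, as the highest value.

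AT5G48440 had the widest gap of the group: 0.482, 0.489, 0.490 and 0.515 in tic40, against 1.11, 1.06, 1.14 and 1.33 in WT. The highest tic40 value was 48.8% of the lowest WT value. Its means were 0.494 ± 0.0146 in tic40 and 1.16 ± 0.118 in WT (SD, n = 4 each), and the differences in samples 1 and 2 (-1.16) and in samples 3 and 4 (-1.29) were similar. AT3G04560 was less even, at 0.200, 0.196, 0.149 and 0.0801 in tic40 and 0.279, 0.232, 0.377 and 0.348 in WT. In this gene tic40 sample 4 was low and WT samples 3 and 4 were high, so that the difference was -0.36 in samples 1 and 2 and -1.73 in samples 3 and 4.

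The brightest genes of the group were AT1G03810, AT1G01500, AT1G21660 and AT1G03660. AT1G03810 was at 1.38, 1.29, 1.43 and 1.55 in tic40, against 1.65, 1.69, 2.68 and 3.27 in WT, with WT samples 3 and 4 far above the rest. AT1G01500 was at 1.32, 1.31, 1.13 and 1.08 in tic40 and 2.19, 2.11, 1.82 and 1.79 in WT. AT1G03660 was at 1.11, 1.22, 0.922 and 1.17 in tic40 and 1.87, 2.10, 1.81 and 1.78 in WT. In AT1G01500 and AT1G03660 the WT arrays lay close together and clearly above tic40, with log2 differences of -0.71 and -0.78.

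The remaining 13 genes had log2 differences of -0.97 to -0.55, with tic40 at 51.2% to 68.1% of WT. Relative to WT, tic40 levels were lowest in AT1G34270 (51.2%), AT4G07670 (56.0%), AT5G24690 (56.0%) and AT2G13690 (56.5%). They were 57.2% in AT1G73470, 59.1% in AT5G38750, 59.8% in AT1G15140 and 61.4% in AT1G50020. The smallest of these differences belonged to AT3G56290 (62.6%), AT1G21500 (63.4%), AT5G63490 (64.2%), AT5G56070 (66.5%) and AT3G47100 (68.1%). Of these 13, AT1G34270 varied least in tic40, at 0.0760 ± 0.00302, against 0.151 ± 0.0350 in WT (SD, n = 4 each). As deposited, its log2 difference was -0.11 and the genotypes overlapped.

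The genes just inside the size limit were AT3G44810, AT4G05070 and AT3G55070. AT3G44810 was at 0.484, 0.423, 0.507 and 0.452 in tic40, against 0.512, 0.535, 0.860 and 0.807 in WT, so that tic40 sample 3 almost reached WT sample 1 (log2 difference -0.51). AT4G05070 was at 0.314, 0.317, 0.304 and 0.369 in tic40, against 0.381, 0.398, 0.542 and 0.554 in WT (-0.51). AT3G55070 was at 0.141, 0.127, 0.119 and 0.140 in tic40, against 0.189, 0.155, 0.241 and 0.195 in WT (-0.55). In AT3G44810 and AT4G05070 WT samples 3 and 4 carried most of the difference.

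Just outside lay AT3G58610 (-0.498), AT5G52960 (-0.48) and CML30 (-0.45), whose tic40 values were also all below their WT values. In all, 21 of the 549 probes were separated in this direction with a smaller difference, and with those past the limit they made up 12.6%. The ceiling on level kept out 5 brighter genes that met every other condition and were not left out by name, chosen for mention after their values were seen. They were LHB1B2, which encodes a chlorophyll-binding protein of the photosystem II antenna (-1.33), AT4G31470 (-0.71), AT1G62250 (-0.66), AT2G33180 (-0.54) and AT4G21770 (-0.51).

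**Figure D2:**
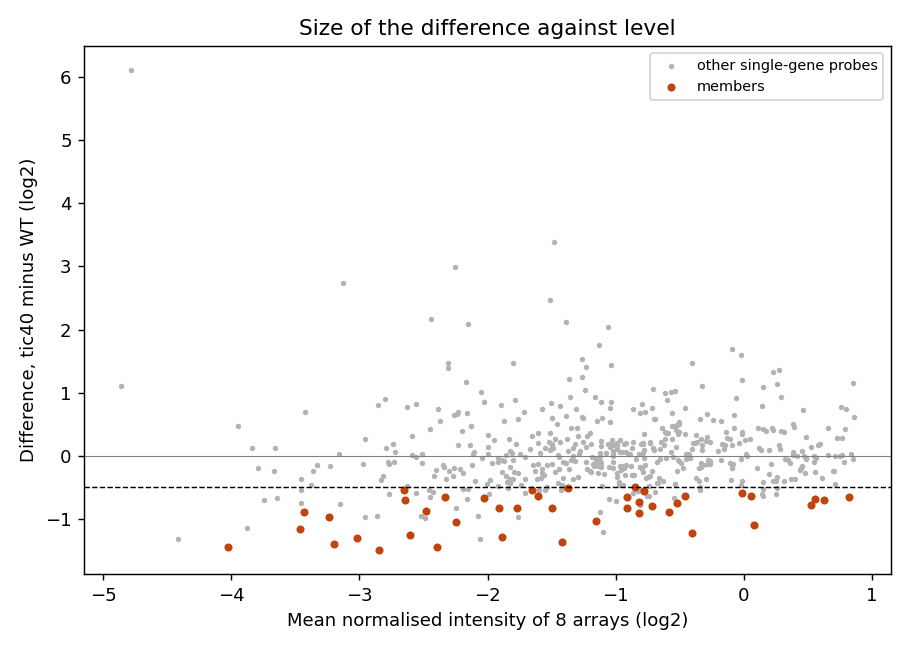
Log2 difference of tic40 minus WT against the mean log2 normalised intensity of the 8 arrays, for the 42 genes (red) and the other single-gene probes that could enter (grey, among them the genes left out by name). The dashed line marks the limit of 0.5. Red points span nearly the whole range of levels, and the largest differences lie mostly at dim levels. These sizes are after quantile normalization and depend on the scaling. As deposited, IQD22 was at -0.21 and AT4G05030 at -0.76, with a median of 0.32 over all probes tested.

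The 42 genes spanned levels from percentile 4.19 to percentile 89.4 of all probes tested, with a median at percentile 33.6. Their mean levels had a median of 0.273 in tic40 and 0.474 in WT, while those of the 549 had a median of 0.503 in tic40 and 0.519 in WT. In WT, 8 of the 42 averaged above 1. The coefficient of variation over the 4 samples had a median of 12.5% in tic40 and 17.0% in WT for the 42 genes, against 11.8% in tic40 and 28.3% in WT for the 549. The smaller spread in WT is partly set by the rule, which needs every WT value to clear the tic40 values.

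The rule named no order between WT samples 1 and 2 and WT samples 3 and 4, although it used all these arrays. Both of WT samples 1 and 2 were above both of WT samples 3 and 4 in 16 of the 42 genes (38.1%), against 37.7% of the 549. The opposite held in 17 genes (40.5%), against 43.0% of the 549, and in 9 genes the WT pairs overlapped. The size of the difference between the WT pairs had a median of 0.33 and a highest value of 0.91 in the 42 genes. The median was 0.63 in the 549, but a large split between the WT pairs makes it harder to meet the rule, so nothing is read from that gap.

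Within samples 1 and 2 the log2 difference of the 42 genes ran from -1.85 to -0.21 with a median of -0.78, and within samples 3 and 4 from -1.73 to -0.17 with a median of -0.97. That all 42 are negative in both follows from the rule. The difference was at least 0.5 in both pairs for 24 genes, in samples 1 and 2 for 30 and in samples 3 and 4 for 36. Sorting the genes by their WT pairs uses WT values that also enter these differences, so unlike medians between the sorted sets follow largely from the sorting. The 17 genes with higher WT samples 3 and 4 had a median difference of -0.38 within samples 1 and 2, and of -0.99 within the others. AT1G03810, UBA1A, AT4G07670 and AT2G13690 were among them. The 16 genes with higher WT samples 1 and 2, such as LpxA, AT5G59060 and AT3G56290, had a median of -0.99 within samples 1 and 2, and of -0.70 within the others. The 9 genes with overlapping WT pairs had medians of -1.19 and -0.96, and they include AT1G09200, AT1G49870, GH9B8, AT2G45990 and TPP2. The plot of the difference within each pair of sample numbers shows the 42 genes together, without marking these sets.

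**Figure D3:**
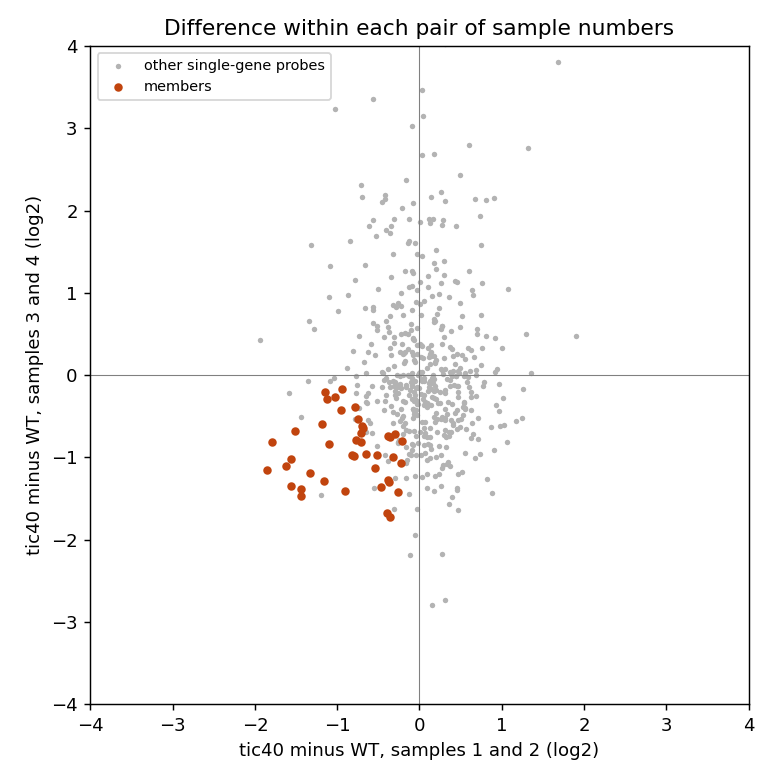
Log2 difference of tic40 minus WT in samples 1 and 2 (horizontal) and in samples 3 and 4 (vertical), for the 42 genes (red) and the other single-gene probes that could enter (grey); 7 grey points beyond 4 on either axis are not shown. The red points lie in the lower left quadrant, as the rule forces. Of the 42, 24 are at or beyond -0.5 on both axes, and the others are nearer 0 on at least 1 axis.

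The group depended on the scaling between arrays. As deposited, the median difference of all probes tested was 0.32, with WT samples 1 and 2 at the low medians given above, and the 42 genes had a median difference of -0.41, which is -0.73 relative to all probes. All 42 lay below the all-probe median, 39 were below 0, and the tic40 and WT values were separate in 11 genes. These were AT4G05030, AT1G09200, AT5G59060, AT4G30740, AT5G48440, LpxA, AT1G03660, AT1G01500, AT1G21660, AT5G63490 and AT5G56070, and the difference was at least 0.5 in all but AT5G63490 (-0.35) and AT5G56070 (-0.36). With each array centred on the median of its values above 0, all 42 were lower in tic40, with a median difference of -0.76. Of the 42, 28 were separate, including these 11. The 14 others were separate with quantile normalization only, among them AT3G04560, AT1G34270, AT5G47030, TPP2 and AT3G13180.

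**Figure D4:**
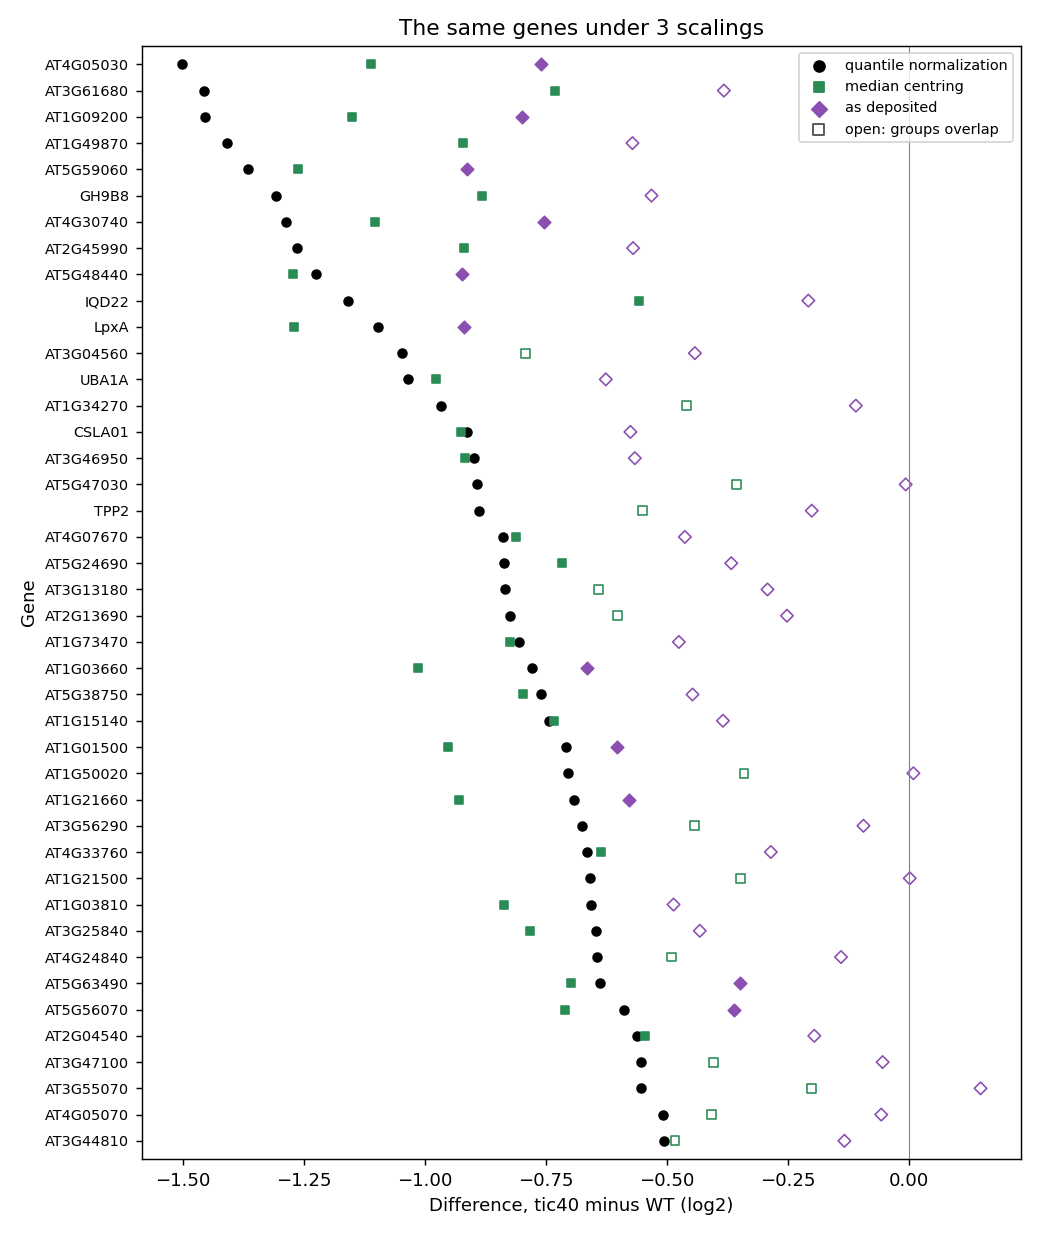
Log2 difference of tic40 minus WT for the 42 genes with quantile normalization (black circles), with median centring (green squares) and as deposited (purple diamonds). Filled symbols mark genes whose tic40 and WT values do not overlap under that scaling: 28 of 42 with median centring and 11 of 42 as deposited.

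The deposited values of LpxA show a separation that needs no scaling: 0.717, 0.733, 0.924 and 0.820 in tic40, against 1.51, 1.59, 1.50 and 1.42 in WT. For AT1G09200 the deposited values were 0.141, 0.132, 0.160 and 0.161 in tic40, against 0.169, 0.213, 0.374 and 0.329 in WT, where WT sample 1 was close to tic40. GH9B8 was at 0.0725, 0.105, 0.127 and 0.119 as deposited in tic40 and at 0.116, 0.148, 0.176 and 0.166 in WT, so that the groups overlapped.

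In limma's fit over all 3318 probes tested, calling probes at a Benjamini-Hochberg adjusted p under 0.05, 255 probes were called (7.69%), 77 higher and 178 lower in tic40. The share called lower was 5.36% of all probes tested and 4.55% of the 549. Of the 42 genes 21 were called lower, a count that the choice of the genes on the same contrast fixes in large part. As deposited, the calls were 311 higher and 46 lower, with 8 of the 42 genes among them. When the replicate block was added, limma called 5 probes (0.151%) and 0 of the 42 genes, although 884 probes had an unadjusted p under 0.05.

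By gene order, 41 of the 42 could be placed, and 0 were direct neighbours. AT4G05030 and AT4G05070 stood 4 genes apart, the 1 pair of consecutive members within 10 genes. The next closest were AT3G46950 and AT3G47100, 15 genes apart, and AT1G49870 and AT1G50020, 16 genes apart.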

How the data were processed

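Total RNA of 8 samples was measured on 1-colour arrays. The authors deposited 1 intensity per probe and array, never negative, on a relative scale; from the values this scale is linear, and how it was scanned, background-corrected and scaled is not given in the sources used here. Arrays have no depth, and their number limits the precision.

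From these values, quantile normalization and log2 were applied with limma 3.58.1 in R 4.3.3. After scaling, a value of 0 was replaced by percentile 1 of the values above 0 on its array. Probes listed at 0 throughout (121) were not tested. The genotypes were compared with lmFit and eBayes, two-sided, with the genotype as the only term, and the procedure was tested on simulated data. The simulated noise was independent between arrays, so that check does not cover the split between the WT pairs or the shared sample numbers. The members, gene lists and settings were chosen with earlier results of these data known. Genes were named from the platform annotation and the TAIR10.1 gene table, which served for names and gene order only. Every member is named. Values on each array are given for the 12 largest differences, the 4 brightest, the 3 just inside the limit and those with a well-known product. The gene lists were H3.1 genes, core histones found by name (28 genes, 2 with a single-gene probe, both H3.1 genes), lipid A-type synthesis and glycosyl hydrolase family 9. The search by name misses any core histone that the gene table gives by locus code only, so other histone genes may be on the array.

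Sample numbers recur in both genotypes. Deviations from the genotype means correlated at 0.306, 0.310, 0.261 and 0.254 between same-numbered samples 1 to 4. All were above 0.1, which counts as pairing here on the data alone, since no label names a batch. The highest correlations of WT samples 1 to 4 with a tic40 sample of another number were 0.0497, 0.0295, 0.120 and 0.0990, so WT sample 3 passed the limit there too. The fit reported has no block, and the replicate block, an alternative, is given beside the counts it changes. The alternatives were the replicate block, other scalings, 1 common floor, a filter on zeros, samples left out, each pair of sample numbers alone, and other limits of the rule. No sequence is shown.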

Additional observations from a re-analysis of the deposited data

Results flagged for a closer look

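In 2 of the 84 sets of 4 samples checked (42 genes in both genotypes), 1 sample stood apart from the other 3 by more than Dixon's criterion (0.829) allows, and chance gives about 1 in 20. Tic40 sample 3 of AT3G61680 was at 0.0192, with the gap to the next sample taking 0.911 of the range. Tic40 sample 1 of AT5G63490 was at 0.669, above the other tic40 samples, with a gap of 0.871 of the range.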

How the results depend on the processing

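With the replicate block limma called 5 probes in place of 255, 4 of them among the 255. In this balanced design the block cannot change the differences of the 42 genes. Leaving out 1 sample gave 43 to 240 calls, with 43, 45, 54 and 44 without tic40 replicates 1 to 4, 127 without WT replicate 3 and 122 without WT replicate 4. Samples 1 and 2 alone gave 1012 calls and samples 3 and 4 alone 2000, fits that measure only the spread within such pairs. Median centring (237), 1 common floor (227), probes above 0 only (257) and the table as deposited (357) stayed within 1.5 times the count of 255, but only 99 of the 357 were among the 255.

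The same rule found 9 genes as deposited, all among the 42, and 37 with median centring, 28 of them among the 42. It found 41 to 59 genes with 1 sample left out, which kept 38 to 41 of the 42. It found 76 genes from samples 1 and 2 alone (30 of the 42), 167 from samples 3 and 4 alone (35 of the 42), 13 with a limit of 1 on the log2 scale and 47 with no ceiling on level. As deposited, the log2 difference reversed to 0.15 for AT3G55070, 0.0097 for AT1G50020 and 0.0022 for AT1G21500, while the median of all probes was 0.32. Median centring reversed none of the 42. The other alternatives could not, since they kept the normalised values in which the rule puts every tic40 value below every WT value. Leaving out 1 sample moved each difference by less than the spread between replicates.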
